A study of Mus musculus with 30 samples.

Results

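FoxK1 KD cells were compared with Control cells at basal, that is, without insulin, by RNA-seq of all genes. The comparison used 8 of the 30 samples of the series, 4 in each group, chosen by their labels alone. All samples were AML12 cells, a mouse hepatocyte line derived from the liver of a mouse transgenic for human TGFα. Control cells had received a non-targeting siRNA and FoxK1 KD cells an siRNA against Foxk1, both by transient transfection, so that the knockdown was partial and no clone was selected. Both groups were serum-starved overnight in DMEM with BSA and mock-treated, and their treatment time is 0 in the labels. FoxK2 KD and double knockdown (DKD) cells at basal, and Control (n = 3) and FoxK1 KD (n = 4) cells after 6 h of 100 nM insulin, served for comparison. The labels number the replicates from 1 to 4, and nothing in them says that they were separate experiments, so the tests measure the spread between these samples.

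FoxK1 and FoxK2 are forkhead transcription factors that bind largely the same DNA motif as the FoxO factors. They bring the Sin3-HDAC corepressor to chromatin, hold down autophagy genes in fed cells and promote genes of aerobic glycolysis. Insulin, through PI 3-kinase and Akt, drives FoxO out of the nucleus, while it favours nuclear FoxK, for which mTOR is also needed. In hepatocytes these pathways meet at glucose use, lipid synthesis and growth.

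Between 3070960 and 5668270 reads were counted on genes in the 8 samples, and 99.75 to 99.8% of them fell on the 11368 genes that passed the filter on low counts. Control replicate 1 stood apart. On the first principal component of the 8 samples, which held 40.9% of the variance, it scored -46.2, while the other Control samples scored -2.24 to 0.877 and the FoxK1 KD samples 7.42 to 21.5. Across 11346 genes, the fold change also fell with GC content (Spearman's rho -0.217, and -0.0898 without that sample). It rose with transcript length (rho 0.261 with log2 length, all samples). Both are descriptions over genes measured in the same libraries. Counts of members of a gene list called at basal are therefore also given without Control replicate 1. Hepatocyte markers were present in part: 10 or 11 of 11 had a count in each sample, with 316 to 710 reads on Hnf4a and 891 to 3583 on Apob, but only 9 to 108 on Alb and at most 9 on Apoe and 5 on Apoa1. The cholangiocyte keratins were also expressed, as described below, and Epcam was at 0. No stellate cell or endothelial marker passed the filter, and Col1a2, Col3a1, Pdgfra, Pdgfrb, Lrat, Pecam1, Cdh5, Kdr and Lyve1 were at 0 in all 8 samples.

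The targeted gene was examined first. Foxk1 lies on chromosome 5 of GRCm38, from 142401497 to 142462011 on the plus strand. Levels are given as CPM, reads scaled to library sizes normalized by the TMM method. Foxk1 was at 87.6, 83.5, 66.2 and 88.4 CPM in Control replicates 1 to 4 and at 38.9, 27.4, 38.8 and 42.0 in FoxK1 KD replicates 1 to 4. All FoxK1 KD samples lay below all Control samples, with a mean of 45.2% of Control. On the log2 scale Foxk1 fell by 1.14 ± 0.12 (standard error). Its adjusted p by the quasi-likelihood test of edgeR, with the Benjamini-Hochberg method over all tested genes, was 6.19e-08; such adjusted p-values are called FDR below. Here and below, values in 4 and 4 samples are given in the order of the replicate numbers, Control first. Foxk2, the paralog of Foxk1, was at 149.7, 144.5, 132.7 and 133.9 CPM in Control and at 100.7, 115.5, 128.2 and 123.6 CPM in FoxK1 KD cells. It fell by 0.26 ± 0.08 on the log2 scale (FDR 0.0487, and 0.148 without Control replicate 1), without overlap between the groups, while the FoxK2 siRNA had lowered it by 1.57 relative to the same Control samples. Of the FoxO factors, Foxo1 (log2 fold change 0.16, FDR 0.442) and Foxo3 (-0.06, FDR 0.613) were not called. Foxo1 was called higher when FoxK1 KD replicate 1 was left out (0.25, FDR 0.234). Foxo3 was called lower when the trend on GC content and length was taken out (-0.13, FDR 0.205). Among 27 subunits of the Sin3-HDAC corepressor and the BAP1 deubiquitinase complex, the known partners of FoxK, 2 rose and 3 fell, no larger shares than the 11.7% and 14.9% of all tested genes, and without Control replicate 1 there were 0 and 1 (all genes, 6.84% and 6.76%).

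**Figure D1:**
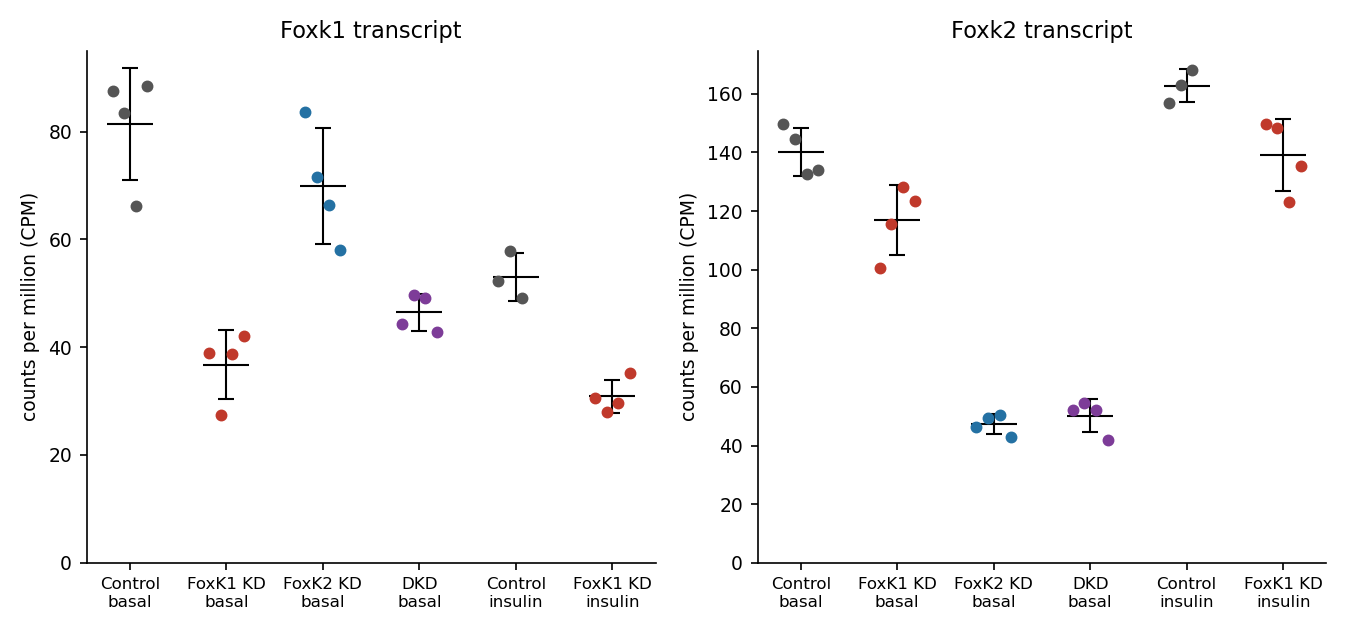
CPM of Foxk1 and Foxk2 in each sample (points) of 4 basal groups and of Control and FoxK1 KD cells after insulin, with the mean and SD of each group. In FoxK1 KD cells at basal, Foxk1 sat at 27.4 to 42.0 CPM, below the Control range of 66.2 to 88.4, and Foxk2 at 100.7 to 128.2 CPM, below 132.7 to 149.7.

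At an FDR below 0.25, the threshold of the study, 3028 of 11368 genes were called (26.6%), 1333 of them higher (11.7%) and 1695 lower (14.9%) in FoxK1 KD cells. Without Control replicate 1, 1547 genes were called (13.6%), 778 higher (6.84%) and 769 lower (6.76%), and 689 and 695 genes were called in the same direction both ways. For 18 of the 1695 lower genes, the sign turned when that sample was left out. Most changes were small, with a median size of 0.333 on the log2 scale among called genes against a median standard error of 0.128 over all genes. The change exceeded 1.5-fold in 186 of the higher and 223 of the lower genes. The 4 and 4 samples did not overlap in 1135 genes (9.98%). Calls at an FDR below 0.05 numbered 385 higher and 535 lower, or 220 and 188 without Control replicate 1.

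Among the genes that met the rule for the largest changes, Mcam and Siglecg rose most. Mcam, a cell adhesion molecule of the immunoglobulin family, was at 1.70, 1.75, 0.744 and 1.07 CPM in Control and at 6.11, 4.95, 8.0 and 5.62 CPM in FoxK1 KD cells, a log2 fold change of 2.25 ± 0.30 (FDR 8.90e-06). Every FoxK1 KD sample thus exceeded every Control sample in this weakly expressed gene. Siglecg, a sialic acid-binding inhibitory receptor best known from B cells, rose from 1.13, 1.5, 0.744 and 1.61 CPM to 5.2, 6.6, 8.23 and 4.01 CPM (2.21 ± 0.32, FDR 3.32e-05). Thbs1 (chromosome 2, 118111876 to 118127133), which encodes the matrix glycoprotein thrombospondin 1, varied little within each group. Its CPM was 24.1, 25.8, 25.1 and 25.9 in Control and 67.0, 74.3, 63.3 and 71.7 in FoxK1 KD cells, a 2.73-fold increase (log2 fold change 1.45 ± 0.11, FDR 8.22e-11). Sept4, a septin GTPase of the cytoskeleton, was at 37.4, 32.3, 36.7 and 32.0 CPM in Control and at 80.1, 78.2, 67.5 and 66.4 CPM in FoxK1 KD cells (1.08 ± 0.10, FDR 3.66e-09). The other 6 of the 10 largest increases, with log2 fold changes of 1.09 to 1.40, were Plcl1 (a phospholipase C-like protein), Crocc2 (a rootletin-like protein), Shroom3 (an actin-binding regulator of cell shape), Fxyd2 (a regulatory subunit of the sodium pump), Fras1 (a basement membrane protein) and Gm4924. All 10 kept their call without Control replicate 1, with log2 fold changes of 0.89 to 2.38. The rule asked for a mean of 5 CPM only in the group where a gene was higher, so that Mcam, Siglecg, Plcl1 and Crocc2, and among the decreases Chac1, Pcsk4 and Lgals2, passed it with a mean over the 8 samples below 5 CPM, which favours large changes in weakly expressed genes.

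The largest decreases fell into 2 kinds by their values in Control replicate 1. In the first kind the log2 fold change without that sample was still -0.95 to -1.60. Vcam1, an NF-κB-inducible adhesion molecule (chromosome 3, 116109949 to 116129688, minus strand), was at 351, 271, 282 and 280 CPM in Control and at 143, 148, 132 and 152 CPM in FoxK1 KD cells (log2 fold change -1.04 ± 0.08, FDR 3.93e-11). Chac1, which degrades glutathione and is a target of ATF4, was at 9.64, 3.25, 6.2 and 4.46 CPM in Control and at 0.679, 1.65, 1.65 and 2.14 CPM in FoxK1 KD cells (-1.91 ± 0.34, FDR 0.000359). Sprr1a, a small proline-rich protein induced by stress, went from 9.64, 8.25, 9.43 and 9.82 CPM to 3.17, 5.28, 2.35 and 2.94 CPM (-1.48 ± 0.21, FDR 1.76e-05). Lgals2 (-1.31, a galectin) was weakly expressed, as was the proprotein convertase Pcsk4 (-1.42, and -1.10 without Control replicate 1), whose Control values of 2.86 to 8.22 CPM, highest in replicate 1, reached down nearly to the highest FoxK1 KD value of 2.72 CPM. In the second kind, the size of the decrease came from Control replicate 1. Prelid1, which moves phosphatidic acid between mitochondrial membranes, was at 1897, 399, 513 and 441 CPM in Control and at 382, 212, 331 and 325 CPM in FoxK1 KD cells, and its log2 fold change of -1.37 became -0.52 without that sample (FDR 0.0164). The tubulin Tuba1b went from -1.20 to -0.54 (FDR 0.0189), Nsmce1, a subunit of the SMC5/6 complex, from -1.15 to -0.27 (FDR 0.227) and the fatty acid-binding protein Fabp5 from -1.09 to -0.35 (FDR 0.20). Tubulin genes are near copies of each other, and the counting could divide their reads. Foxk1 itself completed the 10.

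**Figure D2:**
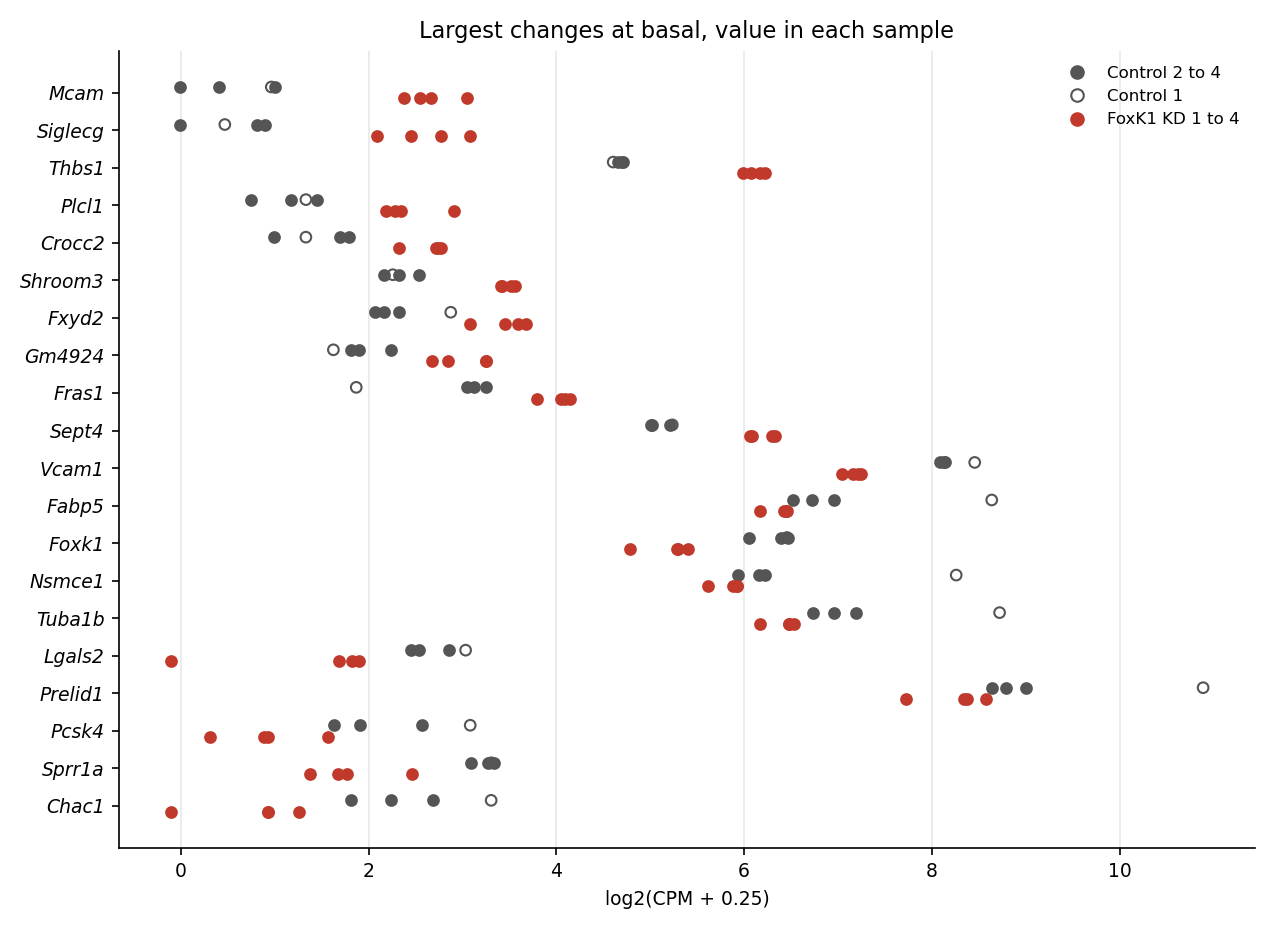
Level of the 10 genes with the largest increase and the 10 with the largest decrease at basal, as log2(CPM + 0.25) in each sample (x axis), for Control replicates 2 to 4 (grey), Control replicate 1 (open) and FoxK1 KD replicates 1 to 4 (red). The groups do not overlap in any of the 20, as the rule for choosing them required, and Control replicate 1 lies far above the other Control samples in Prelid1, Tuba1b, Nsmce1 and Fabp5.

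Genes of glucose uptake, of most steps of glycolysis and of lactate export were called lower in FoxK1 KD cells. Of 27 tested genes of glycolysis and lactate export, 18 fell and 0 rose, against 14.9% and 11.7% of all genes, and 15 fell and 0 rose without Control replicate 1 (all genes, 6.76% and 6.84%). The median log2 fold change was -0.288, against -0.012 for all genes, and 5 of the 27 were above 0. The list was chosen with earlier results of these data known, as were all lists below. The same shares over all genes apply to the counts at basal of every list below. Where 0 members of a list are given below for a direction at basal, edgeR also found 0 at an unadjusted p below 0.05 and DESeq2 and limma-voom found 0, except 1 gene each called higher by limma-voom among the early growth response and the ribosome biogenesis genes. Without Control replicate 1, the unadjusted count was 0 as well, except for 1 higher gene each among the FoxK partners and the complex I subunits. At entry, the glucose transporter Slc2a1 was at 142, 110, 116 and 94.1 CPM in Control and at 74.5, 56.4, 72.0 and 86.7 CPM in FoxK1 KD cells (log2 fold change -0.66 ± 0.12, FDR 0.000351). The first committed step, phosphofructokinase, fell in both its Pfkl form (-0.50, FDR 0.00409) and its Pfkp form (-0.50, FDR 0.00881). Gapdh, often used as a reference gene, was at 1410, 1548, 1552 and 1371 CPM in Control and at 1274, 999, 1147 and 1053 CPM in FoxK1 KD cells (-0.39 ± 0.08, FDR 0.00109), so that the groups did not overlap. Reads of Gapdh, Tpi1, Aldoa and Eno1 can be shared with processed pseudogenes. Downstream, Pgk1 (-0.30), Eno1 (-0.30) and pyruvate kinase Pkm (-0.56) were called lower. Ldha, which turns pyruvate into lactate, was at 1059, 670, 661 and 680 CPM in Control and at 470, 459, 551 and 446 CPM in FoxK1 KD cells (-0.67 ± 0.10, FDR 7.93e-05). The lactate exporter Slc16a1 fell by 0.29 (FDR 0.0905). Tpi1 (-0.68) and Aldoa (-0.60) owed part of their size to Control replicate 1 and stood at -0.36 and -0.29 without it. Hk1, the first enzyme, was close to the threshold (-0.18, FDR 0.176) and lost its call without Control replicate 1 (-0.16, FDR 0.358), Control replicate 3 (-0.17, FDR 0.255), FoxK1 KD replicate 3 (-0.15, FDR 0.317) or FoxK1 KD replicate 4 (-0.13, FDR 0.401), and Hk2 was not called (-0.12, FDR 0.663).

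Around pyruvate dehydrogenase, which links glycolysis to the mitochondria, 6 of 16 genes fell and 1 rose, and without Control replicate 1 these were 4 and 1. Over all genes, 14.9% fell and 11.7% rose, or 6.76% and 6.84% without that sample. Pdk1, a kinase that inactivates the complex, was at 83.4, 75.0, 80.6 and 75.9 CPM in Control and at 58.4, 62.7, 65.9 and 52.2 CPM in FoxK1 KD cells (-0.40 ± 0.08, FDR 0.00266). The phosphatase Pdp2, which acts the other way, also fell (-0.32, FDR 0.0252). The member that rose, the fasting-induced kinase Pdk4 (0.64, FDR 0.240), lost its call when any of 6 samples was left out: Control replicates 2 (0.47, FDR 0.407), 3 (0.59, FDR 0.330) and 4 (0.64, FDR 0.284) and FoxK1 KD replicates 1 (0.42, FDR 0.540), 2 (0.58, FDR 0.388) and 3 (0.64, FDR 0.312).

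Cholesterol synthesis and uptake was the list with the highest share of members called lower. Of 26 tested genes, 21 fell and 1 rose, with a median of -0.314, and without Control replicate 1 there were 18 and 1. Acat2, the first enzyme of the pathway, was at 617, 367, 431 and 405 CPM in Control and at 255, 269, 296 and 248 CPM in FoxK1 KD cells (log2 fold change -0.77 ± 0.11, FDR 1.20e-05). Mvd, which closes the mevalonate part, was at 201, 143, 187 and 153 CPM in Control and at 112, 93.1, 109 and 109 CPM in FoxK1 KD cells (-0.68 ± 0.09, FDR 8.72e-06). Lss, which makes lanosterol, was at 475, 395, 420 and 391 CPM in Control and at 299, 282, 312 and 309 CPM in FoxK1 KD cells (-0.48 ± 0.07, FDR 1.56e-05). These 3 enzymes separated the groups in every sample. Srebf2, the transcription factor that drives the pathway, was at 707, 560, 559 and 547 CPM in Control and at 483, 454, 497 and 475 CPM in FoxK1 KD cells (-0.31 ± 0.07, FDR 0.00777). Hmgcs1, which makes HMG-CoA, fell too (-0.36, FDR 0.0103). The member that rose was Abca1, the exporter of cellular cholesterol (0.98 ± 0.24, FDR 0.0116), at 3.69, 6.50, 5.95 and 12.7 CPM in Control and 15.4, 20.1, 13.2 and 12.0 CPM in FoxK1 KD cells.

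**Figure D3:**
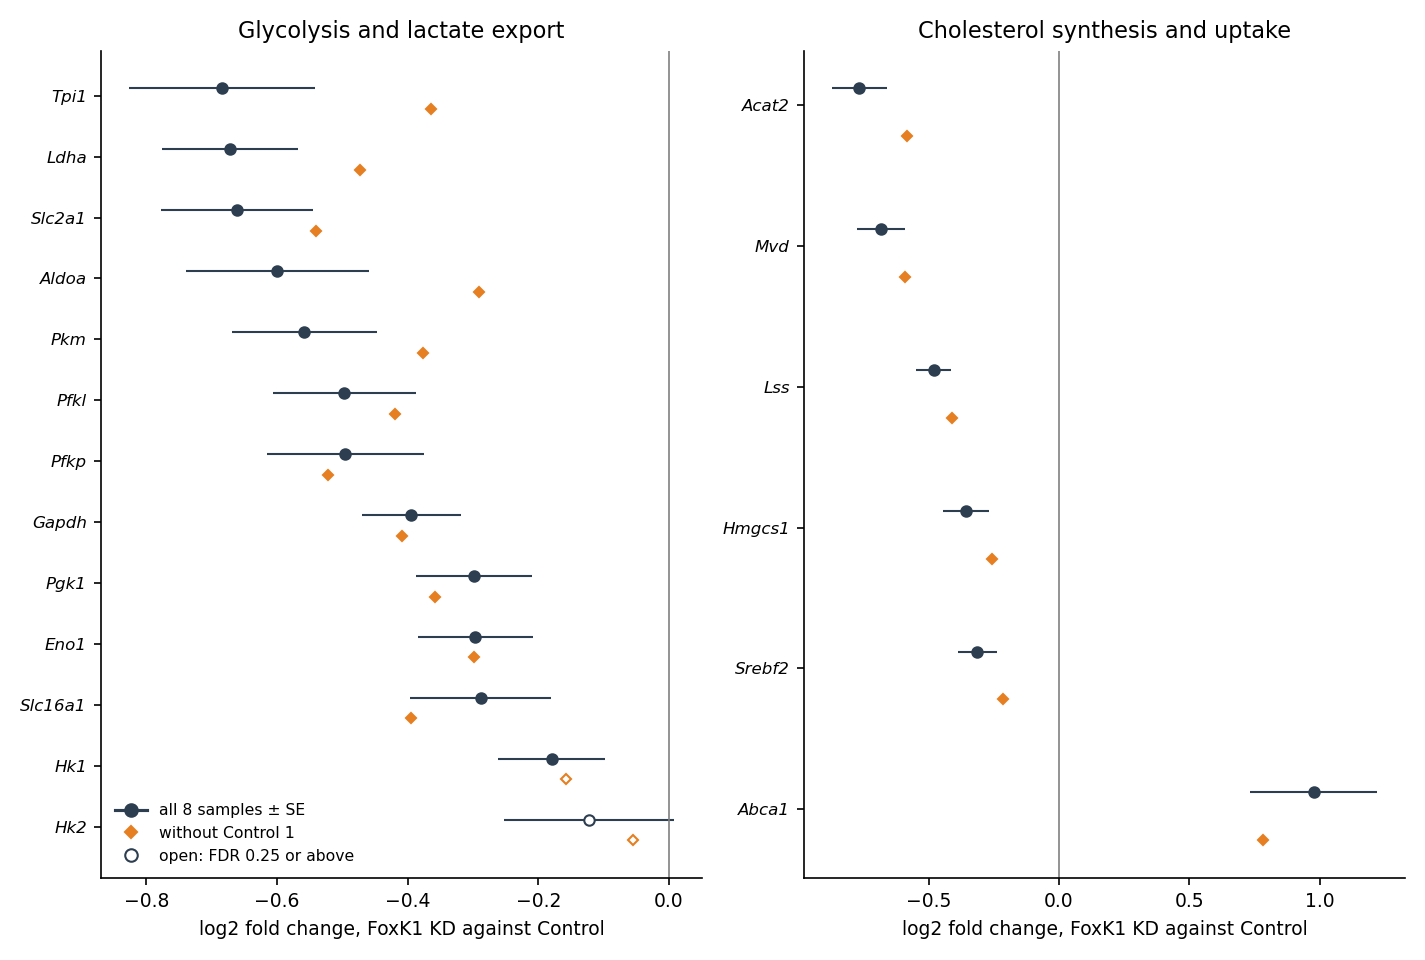
Log2 fold change of FoxK1 KD against Control at basal (x axis, bars: standard error) of the genes of glycolysis and of cholesterol synthesis described in the text, with the value without Control replicate 1 (diamonds) and genes at an FDR of 0.25 or above shown open. In both panels the called genes lie below 0, except Abca1 at 0.98, and Tpi1 and Aldoa move from -0.68 and -0.60 to -0.36 and -0.29 without Control replicate 1.

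In fatty acid synthesis, 11 of 26 genes fell and 2 rose, and 10 and 2 did so without Control replicate 1. Over all genes, 14.9% fell and 11.7% rose, or 6.76% and 6.84% without that sample. Scd1, the delta-9 desaturase that makes monounsaturated fatty acids (chromosome 19, 44394455 to 44407879, minus strand), stood out with 1168, 986, 1140 and 947 CPM in Control and 582, 549, 629 and 548 CPM in FoxK1 KD cells (log2 fold change -0.88 ± 0.08, FDR 1.08e-09, and -0.82 without Control replicate 1). Its level in FoxK1 KD cells was 54.4% of Control. Scd2, its paralog, fell by 0.19 (FDR 0.0785). The elongase Elovl5 (-0.48, FDR 0.00148), the citrate carrier Slc25a1 (-0.44, FDR 0.0177), Acly (-0.28, FDR 0.0218) and Acss2 (-0.60, FDR 0.0206), both makers of acetyl-CoA, fell as well. Fasn, the fatty acid synthase itself, was not called (-0.12, FDR 0.461), but was called lower when the trend on GC content and length was taken out (-0.19, FDR 0.102). Srebf1, the driver of this pathway, was called at -0.33 (FDR 0.0231) and at -0.17 (FDR 0.227) without Control replicate 1. In fatty acid oxidation, 5 of 33 genes fell and 2 rose, or 2 and 1 without that sample, which is near or below the shares over all genes.

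Many genes of amino acid supply were also lower. Among 34 ATF4 targets, enzymes of amino acid synthesis and tRNA synthetases, 20 fell and 2 rose, and without Control replicate 1 there were 15 and 3. Psat1, which acts in serine synthesis, was at 661, 596, 666 and 595 CPM in Control and at 457, 457, 470 and 453 CPM in FoxK1 KD cells (-0.46 ± 0.08, FDR 0.000257). The FoxK1 KD values were nearly level and well apart from the Control values. Asns, the asparagine synthetase (-0.45, FDR 0.000897), the pseudokinase Trib3 (-0.93, FDR 0.00205) and the amino acid transporters Slc7a5 (-0.36, FDR 0.0222) and Slc7a11 (-0.54, FDR 0.0915) fell. Atf4 itself was at 363, 291, 313 and 269 CPM in Control and at 224, 179, 291 and 229 CPM in FoxK1 KD cells (-0.42 ± 0.11, FDR 0.0155). Shmt2, a mitochondrial serine hydroxymethyltransferase, fell by 0.62 and, without Control replicate 1, by 0.37 (FDR 0.0595). Ddit3, which encodes CHOP, was not called with all samples (0.24, FDR 0.571), but was called higher without Control replicate 3 (0.47, FDR 0.241). In the unfolded protein response, 6 of 25 genes fell and 0 rose, or 1 and 0 without Control replicate 1, and among 33 chaperones 7 fell and 2 rose, or 2 and 0. Over all genes, 14.9% fell and 11.7% rose, or 6.76% and 6.84% without that sample.

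**Figure D4:**
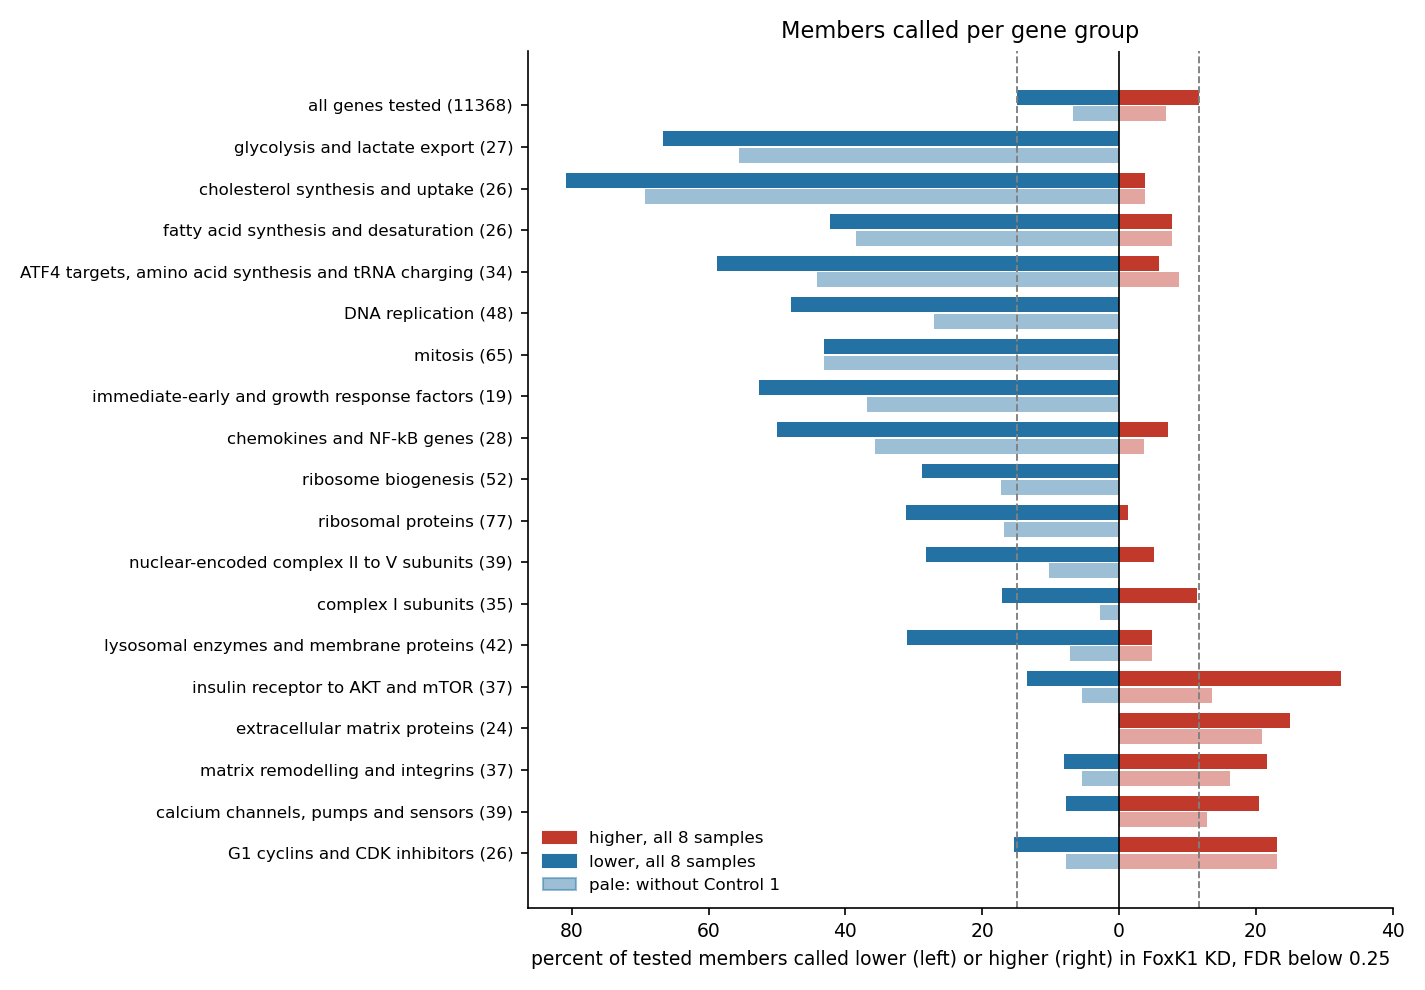
Percent of the tested members of each gene group called higher (red, right) or lower (blue, left) at an FDR below 0.25 with all 8 samples, and the same without Control replicate 1 (pale), with the number of tested members in brackets and the shares over all genes, 11.7% and 14.9%, as dashed lines. The lines hold for the bars with all 8 samples. For the pale bars the shares over all genes were 6.84% higher and 6.76% lower, which are not drawn. Cholesterol synthesis, with 21 of 26, and glycolysis, with 18 of 27, extend farthest to the left, while insulin signalling extends to the right with 12 of 37, which became 4 of 37 when the trend on GC content and length was taken out, and matrix proteins with 6 of 24.

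Many genes of cell division were lower as well, while the cyclins Ccnd1 and Ccnd2 were higher. Of 48 genes of DNA replication, 23 fell and 0 rose (13 and 0 without Control replicate 1), and of 65 genes of mitosis, 28 fell and 0 rose (28 and 0). Uhrf1, which maintains DNA methylation at the fork, was at 86.8, 93.0, 100 and 83.8 CPM in Control and at 59.3, 63.7, 64.7 and 64.5 CPM in FoxK1 KD cells (-0.53 ± 0.10, FDR 0.00128). The helicase subunit Mcm5 (-0.40, FDR 0.00297) and the polymerase subunit Pold1 (-0.41, FDR 0.00931) fell, and the clamp Pcna (-0.24, FDR 0.12) lost its call when Control replicate 1 (-0.21, FDR 0.283) or 3 (-0.18, FDR 0.276) or FoxK1 KD replicate 1 (-0.19, FDR 0.284) or 4 (-0.18, FDR 0.298) was left out. In mitosis, Incenp, a scaffold of the chromosomal passenger complex (-0.52, FDR 0.00258), the checkpoint protein Mad2l1 (-0.38, FDR 0.00782), the mitotic kinase Cdk1 (-0.38, FDR 0.0131) and its cyclin Ccnb1 (-0.39, FDR 0.0194) fell. Plk1 fell by 0.68 and, without Control replicate 1, by 0.44 (FDR 0.0302). Mki67, the common proliferation marker, was not called (0.08, FDR 0.808). Its level was 90.2 CPM in Control replicate 1, and the other 7 samples had 168 to 233 CPM. In bulk RNA, fewer dividing cells and less RNA per cell cannot be told apart.

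Ccnd1 (cyclin D1), which carries growth signals into G1, was at 340, 455, 403 and 459 CPM in Control and at 658, 651, 657 and 686 CPM in FoxK1 KD cells (log2 fold change 0.68 ± 0.08, FDR 2.78e-07). All FoxK1 KD samples were above all Control samples, at 160% of the Control mean. Ccnd2 (0.56, FDR 0.000555) and Ccng1 (0.46, FDR 0.0107) also rose. Over the 26 G1 cyclins, kinases and inhibitors, 6 rose and 4 fell, and without Control replicate 1 there were 6 and 2. The members that fell included Trp53 (-0.30, FDR 0.0235), Cdk4 (-0.51) and E2f1 (-0.64). Cdk4 and E2f1 rested on Control replicate 1, where they were at 1126 CPM against 474 to 550 CPM and at 62.7 CPM against 22.6 to 29.8 CPM in the other Control samples, and neither was called without it (-0.12, FDR 0.656, and -0.21, FDR 0.433). The CDK inhibitor Cdkn1b was at 189, 261, 298 and 318 CPM in Control and at 263, 313, 253 and 251 CPM in FoxK1 KD cells, with a log2 fold change of 0.01 (FDR 0.953).

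Of 19 tested transcription factors of the early growth response, 10 fell and 0 rose, and without Control replicate 1 there were 7 and 0. Fosl1 was at 11.1, 11.8, 5.95 and 10.9 CPM in Control and at 3.85, 4.95, 4.94 and 5.89 CPM in FoxK1 KD cells (-1.02 ± 0.22, FDR 0.00366). Egr1 was at 21.6, 18.8, 15.6 and 29.3 CPM in Control and at 14.7, 14.2, 9.18 and 12.8 CPM in FoxK1 KD cells (-0.77 ± 0.18, FDR 0.00657). Their FoxK1 KD samples lay below all Control samples, narrowly in both genes. Jund (-0.85, FDR 0.00358) and the stress-induced Atf3 (-0.63, FDR 0.00216) fell. Myc (-0.28, FDR 0.102) lost its call without FoxK1 KD replicate 2 (-0.21, FDR 0.293).

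Inflammatory genes were also called lower more often than higher. Among 28 chemokines and NF-κB genes, 14 fell and 2 rose, at a median of -0.238 on the log2 scale, and 10 and 1 did so without Control replicate 1. Beside Vcam1, the neutrophil chemokine Cxcl1 was at 80.0, 73.8, 84.4 and 79.8 CPM in Control and at 48.0, 52.5, 60.0 and 41.7 CPM in FoxK1 KD cells (-0.65 ± 0.11, FDR 0.000209). Ccl20 (-0.43, FDR 0.0159) and the alarmin Il33 (-0.48, FDR 0.00336) fell, again without overlap. Of the NF-κB subunits, Relb (-0.65, FDR 0.000981) and Nfkb2 (-0.43, FDR 0.00244) fell, and Rela went from -0.46 to -0.27 (FDR 0.0879) without Control replicate 1. The inhibitor and target Nfkbia fell by 0.28 (FDR 0.0712). Interferon-stimulated genes were divided, with 5 of 25 higher and 4 lower, or 3 and 3 without Control replicate 1. Ifit3 rose (0.59, FDR 0.00242), but it is a near copy of Ifit3b, which was called higher with all samples (0.33, FDR 0.0758) and not without FoxK1 KD replicate 3 (0.24, FDR 0.253), so that reads may be divided between them. The peptide loader Tapbp (-0.44, FDR 0.00143) and the class I heavy chain H2-K1 (-0.44, FDR 0.00513), a member of a polymorphic family whose reads can be shared, fell.

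The insulin receptor pathway had 12 of 37 genes higher and 5 lower, against 11.7% and 14.9% of all genes, but these counts depended on the setting. They were 5 and 2 without Control replicate 1 (all genes, 6.84% and 6.76%). When only the 8 samples were fitted they were 4 and 2 (all genes, 462 and 531 of 10801). Without the filter on low counts they were 5 and 5 (all genes, 897 and 1405 of 23784). In these settings the share called higher stayed above that over all genes. With the trend on GC content and length taken out they were 4 and 3 of 37. The share called higher was then near that over all genes in that setting (1205 of 11368). The share called lower was below that over all genes (1752 of 11368). Pik3r3, a regulatory subunit of PI 3-kinase, was at 26.9, 33.8, 28.3 and 29.5 CPM in Control and at 40.1, 62.4, 52.5 and 46.0 CPM in FoxK1 KD cells (0.75 ± 0.12, FDR 0.000215). The adaptor Irs1 was at 17.0, 23.3, 18.6 and 23.2 CPM in Control and at 28.5, 28.1, 29.9 and 29.97 CPM in FoxK1 KD cells (0.49 ± 0.12, FDR 0.0108). Sgk1, a kinase downstream of PI 3-kinase, rose by 0.49 (FDR 0.00227) from 72.0, 49.5, 59.1 and 64.1 CPM to 79.9, 92.1, 94.6 and 78.1 CPM. In these 3 genes the groups did not overlap. Igf1r rose by 0.24 (FDR 0.0650), and by 0.07 when the trend on GC content and length was taken out, which ended its call. Insr was not called with all samples (0.15, FDR 0.331), and was called higher without Control replicate 3 (0.20, FDR 0.232) or 4 (0.20, FDR 0.211). Akt1 was called lower (-0.21, FDR 0.162), but not without Control replicate 1 (-0.10, FDR 0.624) or FoxK1 KD replicate 1 (-0.18, FDR 0.297). The translation repressor Eif4ebp1 fell by 0.34 (FDR 0.0221). In RAS-ERK signalling, 5 of 31 genes rose and 4 fell (3 and 2 without Control replicate 1), among them the EGF receptor Egfr, at 368, 399, 399 and 427 CPM in Control and 505, 559, 477 and 508 CPM in FoxK1 KD cells (0.36 ± 0.08, FDR 0.00320), its inhibitor Errfi1 (0.35, FDR 0.0184), and Mapk3, which encodes ERK1 (-0.46, and -0.30 with FDR 0.0532 without Control replicate 1). Counts on mouse Tgfa rose by 0.28 (FDR 0.0290), in a line that also carries a human TGFα transgene, whose reads the mouse annotation does not separate.

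Proteins of the extracellular matrix rose in 6 of 24 cases and fell in 0, or 5 and 0 without Control replicate 1. Beside Thbs1, Sparc, a collagen-binding matricellular protein, was at 177, 191, 189 and 207 CPM in Control and at 249, 278, 253 and 250 CPM in FoxK1 KD cells (0.43 ± 0.07, FDR 0.000216). Col12a1, a collagen that coats fibrils, was at 14.7, 28.3, 27.3 and 25.0 CPM in Control and at 42.1, 43.9, 41.9 and 50.3 CPM in FoxK1 KD cells (0.89 ± 0.15, FDR 0.000328). Both genes were above all Control samples in every FoxK1 KD sample. Lamb1 rose by 0.57 (FDR 0.0484), and Fn1, fibronectin, by 0.36 (FDR 0.0785), though not without Control replicate 1 (0.24, FDR 0.307). Among 37 remodelling enzymes and integrins, 8 rose and 3 fell (6 and 2 without that sample), including the laminin receptor subunit Itga3 (0.26, FDR 0.0269) and the collagen receptor subunit Itga1 (0.36, and 0.23 with FDR 0.181 without Control replicate 1). The collagenase Mmp13 was at 1.49 to 1.75 CPM in Control and at 0.268 to 1.32 CPM in FoxK1 KD cells, about the lowest level that passed the filter (-1.29, FDR 0.0900). Calcium channels, pumps and sensors had 8 of 39 genes higher and 3 lower (5 and 0 without Control replicate 1), and the Wnt list 5 of 27 higher and 4 lower (4 and 2), against 11.7% and 14.9% of all genes (6.84% and 6.76%). The shares called lower were thus no larger than over all genes in the calcium list, and about equal to them in the Wnt list with all samples.

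Genes usually assigned to FoxO and fasting were divided. Of 17, 5 rose and 3 fell (3 and 1 without Control replicate 1). For this and the next lists, 11.7% of all genes were called higher and 14.9% lower (6.84% and 6.76% without that sample). Fbxo32, an atrophy-linked ubiquitin ligase, was at 74.6, 80.3, 75.9 and 90.4 CPM in Control and at 107, 104, 105 and 104 CPM in FoxK1 KD cells (0.38 ± 0.08, FDR 0.00402), and Sesn3, a sestrin, rose by 0.38 (FDR 0.0132). Depp1 fell by 1.14 (FDR 0.00355). In autophagy, 7 of 42 genes rose, somewhat above the share over all genes, and 6 fell, close to it. Without Control replicate 1 there were 3 and 3, close to the shares over all genes. The conjugation enzyme Atg7 (0.31, FDR 0.0250) and the starting kinase Ulk1 (0.30, FDR 0.0300) rose, while Gabarap (-0.43, FDR 0.0101), which marks the autophagosome membrane, and the cargo receptor Sqstm1 (-0.31, FDR 0.0262) fell. Lysosomal genes fell in 13 of 42 cases and rose in 2, but without Control replicate 1 these were 3 and 2, near the shares over all genes. Among 37 regulators of apoptosis, 9 rose and 9 fell (4 and 6), with the death receptor Tnfrsf10b (0.28, FDR 0.0394) and the apoptosome protein Apaf1 (0.29, FDR 0.0361) higher, and Bid (-0.36, and -0.20 with FDR 0.147 without Control replicate 1) lower. Among 37 NRF2 and glutathione genes, 6 rose and 11 fell (4 and 5): Gclc, which starts glutathione synthesis, rose by 0.39 (FDR 0.000897), and Pgd, of the pentose phosphate pathway, fell by 0.46 and, without Control replicate 1, by 0.29 (FDR 0.0202).

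In mitochondrial genes few calls were left without Control replicate 1. Of 35 complex I subunits, 4 rose and 6 fell, but 0 and 1 without that sample, and of 39 nuclear-encoded subunits of complexes II to V, 2 rose and 11 fell, but 0 and 4. Cox7c, a small subunit of cytochrome oxidase, was at 543, 108, 143 and 142 CPM in Control and at 118, 165, 57.4 and 107 CPM in FoxK1 KD cells, and its log2 fold change of -1.06 (FDR 0.0300) became -0.24 (FDR 0.614). Ndufb8, of complex I, went from -0.52 (FDR 0.103) to 0.00 (FDR 0.999), and Atp5g3 from -0.55 to -0.31 (FDR 0.216). Of 11 transcripts of the mitochondrial genome, 10 had a log2 fold change above 0, with a median of 0.257, and 2 were called higher and 1 lower. These calls moved with single samples. By edgeR, none was higher at an FDR below 0.25 or at an unadjusted p below 0.05 without Control replicate 1, FoxK1 KD replicate 1 or FoxK1 KD replicate 2, while at the FDR threshold 6 were without Control replicate 4, 5 without FoxK1 KD replicate 4 and 8 without FoxK1 KD replicate 3, and 6 were without the filter on low counts. The mitochondrial genome held 1.32 to 2.43% of counts in the 8 samples. In mitochondrial dynamics and import, 5 of 37 genes rose and 10 fell (2 and 3), with the import receptor Tomm20 higher (0.35, FDR 0.00953). Ribosomal proteins fell in 24 of 77 cases and rose in 1 (13 and 0), and ribosome biogenesis factors fell in 15 of 52 and rose in 0 (9 and 0), against 14.9% of all genes called lower, or 6.76% without Control replicate 1. Rpl12 was at 2021, 875, 1064 and 773 CPM in Control and at 766, 709, 701 and 766 CPM in FoxK1 KD cells, so that its -0.68 became -0.29 (FDR 0.190), whereas Rps2 held at -0.41 (FDR 0.0182) and -0.38 (FDR 0.0563). Both have many processed pseudogenes. The nucleolar protein Ncl fell by 0.37 and, without Control replicate 1, by 0.24 (FDR 0.0680).

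Liver identity genes showed no common direction. Of 17 hepatocyte transcription factors, 5 rose and 3 fell (3 and 2 without Control replicate 1): the bile acid receptor Nr1h4 (0.46, FDR 0.0146) and the pioneer factor Foxa1 (0.41, FDR 0.0285) rose, Foxa3 fell (-0.53, FDR 0.0426), and Hnf4a, at 0.21 (FDR 0.104), was not called without Control replicate 1 (0.12, FDR 0.435). Of 17 secreted plasma proteins, 3 rose and 1 fell (3 and 1). Serpina1a, an alpha-1 antitrypsin gene, was at 15.9, 10.8, 13.9 and 12.3 CPM in Control and at 27.6, 20.1, 21.4 and 24.1 CPM in FoxK1 KD cells (0.84 ± 0.14, FDR 0.000220). Serpina1b rose too (0.57, FDR 0.00878), but both belong to a family of near copies among which reads can be divided. Ttr fell by 0.81 and, without Control replicate 1, by 0.53 (FDR 0.188). The cholangiocyte markers Krt19 (753, 488, 620 and 377 CPM in Control and 364, 343, 342 and 323 CPM in FoxK1 KD cells, -0.70, FDR 0.000351) and Sox9 (-0.40, FDR 0.00250) fell, while Krt7 rose (0.41, FDR 0.110), and Spp1 was not called. The 5 cholangiocyte markers summed to 1691 to 2153 CPM in Control and 1339 to 1741 CPM in FoxK1 KD cells. Csf1r, the CSF-1 receptor of macrophages, was at 6.52, 10.2, 10.9 and 8.39 CPM in Control and at 16.1, 16.5, 21.4 and 19.0 CPM in FoxK1 KD cells (1.01 ± 0.16, FDR 0.000143). The 6 macrophage and leukocyte markers summed to 8.22 to 12.9 CPM in Control and 17.7 to 22.1 CPM in FoxK1 KD cells, 3 or 4 of them with a count, most of it from Csf1r. Adgre1 and Itgam were at 0 in all 8 samples, and Ptprc had 2 to 14 reads. Of 20 circadian clock genes, 2 rose and 1 fell (2 and 1), the repressor Bhlhe40 being at 191 to 196 CPM in Control and 146 to 160 CPM in FoxK1 KD cells (-0.35, FDR 0.000613). In a list of IGF ligands, binding proteins and related genes, the ligands Igf1 and Igf2 did not pass the filter. Of its 7 tested members, 2 rose and 1 fell, and none was called without Control replicate 1. The called members were the receptor gene Igf2r and the mRNA-binding protein genes Igf2bp2 and Igf2bp3.

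Of 24 tested genes that the study itself names for knockdown effects, 8 rose and 10 fell (7 and 8 without Control replicate 1). They were chosen on these samples, so their counts here are no independent evidence of a direction. In livers of mice with FoxK1 deleted, the study also reports lower Vcam1, Aff4 and Tgoln1 mRNA. It reports higher Mcam, Adgrg1 and Sgk1 mRNA in those livers. Beside Ccnd1, Sgk1 and Mcam, the adhesion receptor Adgrg1 was at 59.3, 70.8, 68.5 and 67.7 CPM in Control and at 110, 95.7, 103 and 103 CPM in FoxK1 KD cells (0.63 ± 0.08, FDR 4.53e-06). Alkaline phosphatase Alpl rose by 0.71 (FDR 0.000375), and Wdr45, a factor of autophagosome formation, by 0.42 (FDR 0.0409). Beside Vcam1, Scd1 and Foxk2, Tgoln1, a protein of the trans-Golgi network with a close paralog, was at 823, 671, 675 and 668 CPM in Control and at 437, 427, 458 and 541 CPM in FoxK1 KD cells (-0.61 ± 0.08, FDR 2.99e-06). Aff4, a scaffold of the super elongation complex, was at 410, 482, 464 and 486 CPM in Control and at 318, 328, 342 and 335 CPM in FoxK1 KD cells (-0.48 ± 0.07, FDR 5.30e-05). Calls that one sample decided were Mfn2, which fuses mitochondria (0.25, and 0.15 with FDR 0.317 without FoxK1 KD replicate 3), Mtch1, a mitochondrial carrier homolog (-0.30, and -0.15 with FDR 0.445 without Control replicate 1), Dusp5, an ERK phosphatase at 0.496 to 3.39 CPM (0.73, and not called without Control replicate 1 at 0.79, Control replicate 3 at 0.44, FoxK1 KD replicate 1 at 0.63 or FoxK1 KD replicate 4 at 0.68) and mt-Nd6 (-0.25, and not called without Control replicate 1 at -0.16 or FoxK1 KD replicate 2, 3 or 4 at -0.22 to -0.23). The mt-Nd6 gene lies on the other strand of the mitochondrial genome, and whether the counting used strand is not given in the sources used here. Letm1 (-0.06), Ccng2 (-0.15), Spry4 (0.15), Hk2 (-0.12) and Cdkn1b (0.01) were not called. Leaving out a single Control sample brought Ccng2 below the threshold at -0.20 to -0.21 (FDR 0.211 to 0.225, Control replicates 2, 3 and 4). So did taking out the trend on GC content and length (-0.24, FDR 0.134).

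The promoters of the changed genes were searched for the core forkhead motif GTAAACA on both strands, within 250 bases before to 50 bases after the RefSeq start (GRCm38.p6), with 1 window per gene. It occurred in 3.55% of all 27025 windows and in 2.57% of the 8740 windows of tested genes. The share was 2.43% (25 of 1029) in genes called higher, 2.35% (31 of 1318) in genes called lower and 2.64% in genes tested and not called. In genes called in the same direction with and without Control replicate 1 it was 2.86% (15 of 525) and 2.44% (13 of 532). The shorter TAAACA, which the longer motif contains, occurred in 9.14%, 9.18% and 7.76%. Of 201 named genes, 155 had a window and 4 held GTAAACA. They are printed below as far as 30 bases on each side within the window, read 5′ to 3′ on the strand of the gene, with the motif, or its reverse complement TGTTTAC, in capitals.

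Slc7a11, which fell by 0.54, chr3:50443809-50443863, minus strand: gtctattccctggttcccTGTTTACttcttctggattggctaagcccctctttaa
Akt1, called at -0.21, chr12:112675009-112675075, minus strand: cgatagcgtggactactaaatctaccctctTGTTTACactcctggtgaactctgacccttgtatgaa
Mmp13, called at -1.29, chr9:7272403-7272469, plus strand: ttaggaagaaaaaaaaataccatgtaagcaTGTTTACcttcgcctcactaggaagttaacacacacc
Foxa1, which rose by 0.41, chr12:57546216-57546282, minus strand: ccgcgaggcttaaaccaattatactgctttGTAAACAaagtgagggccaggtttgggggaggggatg

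The motif begins 232, 161, 81 and 141 bases before the start of Slc7a11, Akt1, Mmp13 and Foxa1. The windows of Cdkn1b, Ccng2 and Foxk2 did not hold these 7 letters. Foxk1, Ccnd1, Scd1, Vcam1 and Thbs1 had no window in the table used.

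The same contrast was available after insulin in other samples, 4 FoxK1 KD and 3 Control, so that no sample is shared with the basal comparison. There, 1717 genes were called (15.1%), 863 higher (7.59%) and 854 lower (7.51%). Foxk1 was again lower (-0.78, FDR 0.000987). Of the 1333 genes called higher at basal, 957 (71.8%) had a positive log2 fold change after insulin, against 50.6% of all genes, and 311 (23.3% of the basal and 36.0% of the insulin calls) were called higher. Of the 1695 called lower at basal, 1109 (65.4%) had a negative log2 fold change, against 49.4% of all genes, and 275 (16.2% and 32.2%) were called lower. Opposite calls numbered 23 and 29. Among genes called at basal without Control replicate 1, the shares with the same sign were 83.3% and 78.9%. Mcam, Siglecg, Thbs1 and Sept4 were again higher, at 1.91, 3.45, 1.59 and 1.22, and Sprr1a, Scd1, Aff4, Vcam1 and Tgoln1 again lower, at -1.83, -0.71, -0.70, -0.63 and -0.58. Serpina1a (1.30), Csf1r (1.71) and Adgrg1 (0.77) were also called higher in both. By list, 8 of 27 glycolysis genes were called lower and 0 higher after insulin, 15 of 26 cholesterol genes lower and 0 higher, 16 of 34 ATF4 and amino acid genes lower and 1 higher, 17 of 48 replication genes lower and 0 higher, 26 of 65 mitosis genes lower and 0 higher, and 10 of 28 chemokine and NF-κB genes lower and 2 higher. Other lists did not repeat their basal counts. Remodelling enzymes and integrins had 3 of 37 higher and 8 lower after insulin, against 8 and 3 at basal. Ribosomal proteins had 1 of 77 higher and 1 lower, against 1 and 24. Lysosomal genes had 7 of 42 higher and 4 lower, against 2 and 13. Matrix proteins had 6 of 24 higher and 3 lower, where at basal none was lower. The counts of 0 after insulin were 0 at an unadjusted p below 0.05 by edgeR, and by DESeq2 and limma-voom. No nuclear-encoded subunit of complexes I to V was called by edgeR, with 1 at an unadjusted p below 0.05 and 1 called by DESeq2, both lower in FoxK1 KD cells and in complexes II to V.

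**Figure D5:**
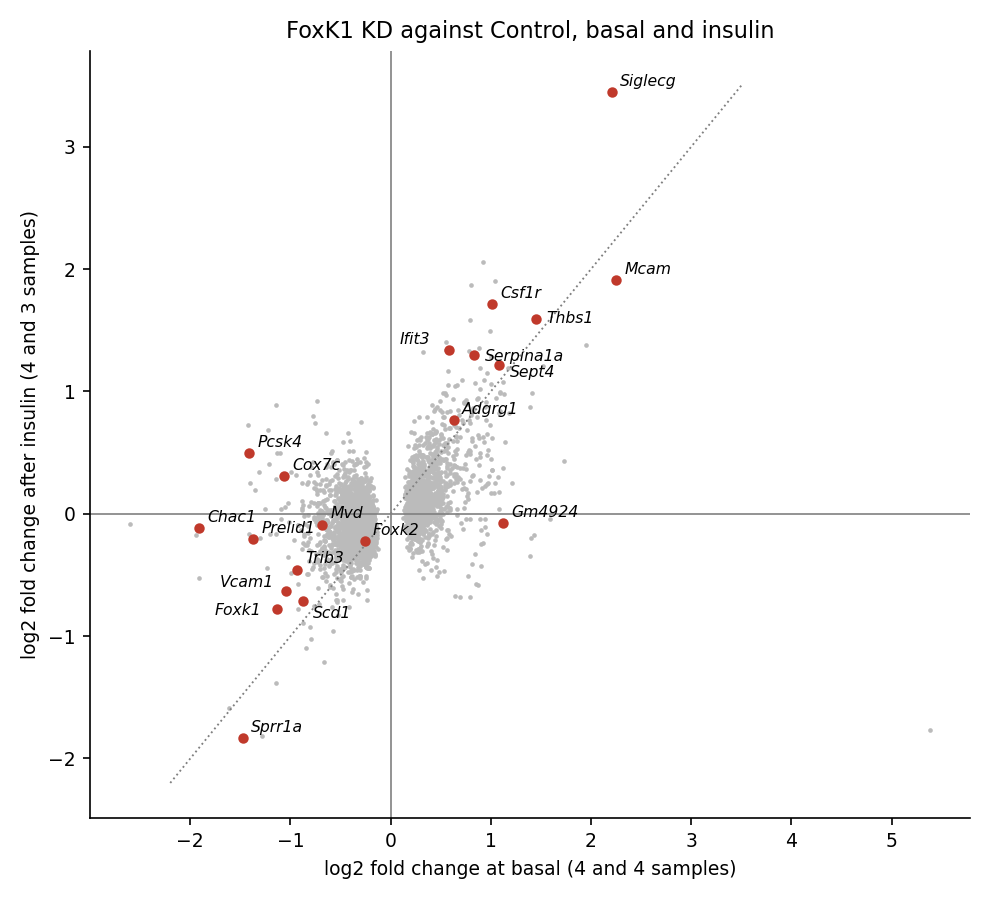
Log2 fold change of FoxK1 KD against Control at basal (x axis) and after insulin (y axis) of the genes called at basal, with named genes in red and the line of equal change dotted. Thbs1, Sept4 and Scd1 lie near the line, Siglecg above it (2.21 and 3.45), and Chac1 (-1.91 and -0.12), Prelid1 (-1.37 and -0.21) and Gm4924 (1.12 and -0.07) near 0 after insulin.

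The difference between the effect after insulin and at basal was tested directly. It was called in 226 genes as more positive and in 160 as more negative after insulin, of which none passed an FDR of 0.05 by edgeR (1519 genes had an unadjusted p below 0.05, and 13 passed by DESeq2). Without Control replicate 1, these counts were 23 and 22. Among the 201 named genes, 29 were called, and 3 without Control replicate 1. Many of these were chosen for a change at basal, a choice that by itself favours a smaller effect after insulin, so these counts and values are a description. Chac1 fell by 1.91 at basal and was at -0.12 after insulin, a difference of 1.8 (FDR 0.125, and 0.247 without Control replicate 1). Mvd was at -0.68 and -0.09, a difference of 0.60 (FDR 0.101, and 0.247). After insulin, Chac1 stood at 9.20 ± 2.23 CPM (SD, n = 3) in Control and 8.54 ± 1.12 CPM (n = 4) in FoxK1 KD cells, and Mvd at 246 ± 11.4 and 231 ± 27.1 CPM. The difference for Ccnd1 was -0.38 (FDR 0.179, and 0.295 without Control replicate 1).

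FoxK1 KD and FoxK2 KD cells were also compared with each other, which tests whether a change was larger in one of them. Between these groups, 1876 genes were called (16.5%), 905 higher (7.96%) and 971 lower (8.54%) in FoxK1 KD cells. Of the 201 named genes, chosen in part on the same FoxK1 KD samples, 113 were called. Vcam1 was at 144 ± 8.76 CPM (SD, n = 4) in FoxK1 KD and 301 ± 17.4 CPM (n = 4) in FoxK2 KD cells, a log2 difference of -1.07 ± 0.08 (FDR 9.73e-12). Thbs1 was at 69.1 ± 4.89 and 33.1 ± 2.02 CPM, a difference of 1.06 (FDR 1.25e-07), Scd1 differed by -0.64 (FDR 2.25e-06), Tgoln1 by -0.67 (FDR 6.11e-07), Psat1 by -0.49 (FDR 0.000102) and Il33 by -0.70 (FDR 5.20e-05). Fxyd2 (0.34, FDR 0.347), Pfkl (-0.20, FDR 0.333) and Srebf2 (-0.14, FDR 0.322) were not called between the knockdowns. Chemokine and NF-κB genes were lower in FoxK1 KD than in FoxK2 KD cells in 18 of 28 cases and higher in 0, glycolysis genes in 10 of 27 and 0, cholesterol genes in 12 of 26 and 0, and ATF4 and amino acid genes lower in 16 of 34 and higher in 2. Transcripts of the mitochondrial genome were higher in 8 of 11 cases and lower in 0. The mitochondrial genome held 2.27, 2.43, 1.72 and 1.71% of counts in FoxK1 KD replicates 1 to 4. In FoxK2 KD cells it held 1.60 to 1.79%, a range that includes FoxK1 KD replicates 3 and 4. The count of 8 is given with all samples only. In this comparison, the lists given with 0 also had 0 at an unadjusted p below 0.05 and by DESeq2 and limma-voom. Against the same Control samples, DKD cells had log2 fold changes of 1.29 for Thbs1, -0.90 for Vcam1, -0.81 for Scd1, 0.74 for Ccnd1, -0.17 for Psat1 and -0.06 for Mvd, where FoxK1 KD cells had 1.45, -1.04, -0.88, 0.68, -0.46 and -0.68. These comparisons share their Control samples, so the values are only set side by side.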

How the data were processed

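RNA was isolated from AML12 cells and sequenced from NEBNext libraries. The authors deposited raw counts, the reads counted on each of 49089 Ensembl genes in each of 30 samples, without normalization. The submitters' processing notes name CASAVA 1.8, STAR 2.4.2a, featureCounts and GRCm38.p4; the annotation release and the strand setting are not given in the sources used here. Symbols, positions and gene types came from GENCODE M21 (48435 identifiers found). Genes were filtered with filterByExpr (11368 left), normalized by TMM and fitted in 1 model of the 8 groups with edgeR 4.0.16 (glmQLFit, glmQLFTest) in R 4.3.3, with Benjamini-Hochberg adjustment and an FDR below 0.25. Standard errors were obtained from each log2 fold change and its F statistic (size over the root of F). The fit was tested on simulated counts, drawn from a common mean profile with some genes changed by known folds. These held no outlying sample like Control replicate 1 and no trend on GC content or length, so the test does not cover those features. The members and gene lists were chosen with earlier results of these data known. Named genes were Foxk1, Foxk2, the genes named in the study, the 10 largest increases and decreases (protein-coding, FDR below 0.05, mean of at least 5 CPM in the group where they were higher, no overlap), up to 3 genes per list and direction, and list members with a defining role. Alternatives were DESeq2 1.42.0, limma-voom (limma 3.58.1), upper-quartile scaling, 2 other filters, fewer samples, a replicate block, a GC and length trend (natural splines, 4 degrees of freedom), each sample left out, and stricter thresholds. Counts of list members without Control replicate 1 were added after seeing the data. Standard errors had a median of 0.128 and hold both counting error and the spread between samples, which were not separated. A few results that meet the naming rule are not reported here.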

Additional observations from a re-analysis of the deposited data

Results flagged for a closer look

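Of 330 groups of 4 samples examined (165 genes in Control and in FoxK1 KD cells), 30 held a sample whose gap to the nearest other took up more of the group's range than the 95% limit of Dixon's test allows, where chance gives about 1 in 20. In 16 of them, Control replicate 1 was the highest: Foxo3 (324 CPM), Prelid1 (1897 CPM), Vcam1 (351 CPM), Tuba1b (422 CPM), Nsmce1 (306 CPM), Fabp5 (398 CPM), Cox7c (543 CPM), Tgoln1 (823 CPM), Mtch1 (188 CPM), Ccng2 (439 CPM), Aldoa (3524 CPM), Ldha (1059 CPM), Srebf2 (707 CPM), Cdk4 (1126 CPM), Sox9 (296 CPM) and Ndufb8 (571 CPM). In Tgfa that sample was the lowest (131 CPM). Of the other Control samples, replicate 3 was lowest in Fosl1 (5.95 CPM) and Bhlhe40 (192 CPM), and replicate 4 lowest in Trib3 (8.39 CPM) and Nr1h4 (16.4 CPM). Among FoxK1 KD samples, replicate 2 was lowest in Fabp5 (71.6 CPM), Srebf1 (193 CPM), Mvd (93.1 CPM) and Il33 (49.5 CPM) and highest in Sparc (278 CPM), replicate 1 lowest in Crocc2 (4.75 CPM) and highest in mt-Nd6 (323 CPM), replicate 3 lowest in Nsmce1 (48.9 CPM), and replicate 4 highest in Igf1r (189 CPM).

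In 22 of the 165 genes the FoxK1 KD effect differed between insulin and basal at an FDR below 0.25 by edgeR's test of the difference, and in 2 of them, Chac1 and Mvd, also without Control replicate 1. As log2 values, effect after insulin minus effect at basal, the difference was 1.8 for Chac1, 0.60 for Mvd, 1.91 for Pcsk4, 1.16 for Prelid1, 0.41 for Vcam1, 1.04 for Tuba1b, 1.14 for Fabp5, 1.37 for Cox7c, 0.48 for Trp53, 0.77 for Cdk4, 0.75 for Ifit3, 0.998 for Ifit3b, 0.63 for Mapk3, 0.58 for Gabarap, 1.13 for Ttr, 0.73 for Atp5g3, 0.63 for Wnt10a, -1.20 for Gm4924, -0.38 for Ccnd1, -0.34 for Gclc, -0.39 for Tomm20 and -0.46 for Clock. None of the 22 passed an FDR of 0.05. Many of these genes were chosen for a change at basal, which by itself favours a smaller effect after insulin.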

How the results depend on the processing

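Counts of genes called at basal, 1333 higher and 1695 lower, were within 1.5 times of these under DESeq2 (1191 and 1541), limma-voom (1392 and 1566), upper-quartile scaling, both other filters on low counts, the 16 basal samples and the GC and length trend. They were 462 and 531 when only the 8 samples compared were fitted, 385 and 535 at an FDR below 0.05, and 186 and 223 with a fold change above 1.5. Leaving out single samples gave 778 to 1583 higher and 769 to 2009 lower genes, with the lowest counts without Control replicate 1. With the GC and length trend taken out, 1752 of 11368 genes were called lower. Members called lower then went from 18 to 13 of 27 in glycolysis and from 24 to 20 of 77 in ribosomal proteins. They went from 21 to 23 of 26 in cholesterol synthesis and uptake and from 28 to 37 of 65 in mitosis. Matrix proteins had 6 of 24 higher and 1 lower, with a median log2 fold change of 0.016 instead of 0.072. Deviations from the group mean of same-numbered FoxK1 KD and Control samples correlated at -0.061 to 0.086 at basal and at -0.074 to 0.063 after insulin. The numbers were therefore not taken as pairs, and a replicate block gave 1301 and 1652 genes. For calls after insulin in the basal direction (586 genes), the alternatives gave 398 to 630. The difference in effect between insulin and basal was called in 29 named genes, and in 3 without Control replicate 1. Of the 154 called genes among the 165 examined singly, 150 kept their call under DESeq2, 152 under limma-voom, 153 under the block, 129 with only the 8 samples and 140 without Control replicate 1. Direction changed in 5 genes near 0 or decided by 1 sample. Leaving out single samples gave -0.11 (Control replicate 1) to 0.11 for Cdkn1b, -0.21 to 0.02 (Control replicate 1) for Ccng2, -0.13 (Control replicate 1) to 0.23 for Mki67, -0.34 (FoxK1 KD replicate 1) to 0.55 for Spry4, which was at -0.23 without Control replicate 3, and -0.69 to 0.00 (Control replicate 1) for Ndufb8. Cdkn1b was also at -0.06 without FoxK1 KD replicate 2, and with the GC and length trend Cdkn1b and Mki67 were at -0.06. The cause was not tested.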

Other observations

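The gene with the largest fitted fold change at basal, noticed after its values were seen, was Gm10800, a predicted gene. It was at 0, 0, 0.744 and 0.179 CPM in Control and at 0, 24.4, 18.8 and 3.21 CPM in FoxK1 KD cells (log2 fold change 5.38, FDR 0.0032). The groups overlapped at 0, and after insulin its log2 fold change was -1.77.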
